A study of Mus musculus with 22 samples.

Results

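Kinesins and dynein are the motors that carry cargo along microtubules. Most kinesins walk towards the plus end of the microtubule, cytoplasmic dynein walks towards the minus end with the help of the dynactin complex, and light and intermediate chains link these motors to their cargo. In astrocytes such motors move organelles, vesicles and mRNA into the processes, and retinal axons of the optic nerve depend on the same gene families for axonal transport. The genes described here are the 64 protein-coding genes, of 29367 genes in the count table, whose symbols begin with Kif and a number, Kifc, Dync, Dynl or Dctn, or are Klc1 to Klc4. Of the kinesin genes with a part in mitosis, only the 3 genes Kif11, Kif20a and Kif23 were left out. The genes were chosen by symbol alone, and 1 of them, Kif1bp, encodes a protein that binds kinesins and is no motor.

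The mRNA came from ribosomes that carry an HA tag in astrocytes. Ribotag mice (B6J.129(Cg)-Rpl22tm1.1Psam/SjJ) had been crossed with a GFAP-Cre line, in which the promoter of the astrocyte gene GFAP drives Cre, and the offspring are labelled WT. All animals had received a microbead injection into the eye, which raises the intraocular pressure (IOP), and were 3 to 4 months old. The optic nerve head (ONH) and the optic nerve proper (ONP) were collected at 7 days (4 libraries per region) and 30 days (7 libraries per region), and each of the 22 libraries combined 4 animals, of which 2 were male. Animals without the injection were not analysed here, so each comparison below is between days or between regions. Libraries held 16292489 to 33307092 counts. Levels are in CPM, the counts of a gene relative to all counts of its library after TMM scaling. An amount of 3 counts corresponds to 0.0901 to 0.184 CPM before that scaling.

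The astrocyte origin was checked with marker lists. The summed level of 10 astrocyte markers was 14645 to 34046 CPM over all libraries. Markers of other cells were present as well: those of oligodendrocytes (8 genes) summed to 80095 to 107709 CPM in the ONP at 7 days, 25331 to 83585 CPM in the ONP at 30 days and 13269 to 39960 CPM in the ONH. Neuron and axon markers (12 genes) summed to 69.2 to 355 CPM over all libraries. In such captured bulk RNA, fewer cells of a type, less RNA per cell and less RNA carried along from untagged cells cannot be told apart. In the ONH at 7 days, library 1 stood apart for Kif5a (4687 CPM).

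The promoters of 3 members to which the results return are shown, as RefSeq gives them for GRCm38.p6, 5′ to 3′ on the strand of the gene. Kif5c was higher in the ONH on both days, and Dynlrb2 had the largest increase past the threshold in the ONP. Kif1b passed the test for a different change in the regions, a call lost in 20 of 33 alternatives. Capitals mark matches, on either strand, to TGACGTCA (the cAMP response element), to GGGCGGG (the GC box), to CCAAT (named for its letters), to GTTGCC (the X-box half-site, bound by RFX factors) and to the NRF1 motif. The Kif5c promoter lies at chr2:49619036-49619335 on the plus strand, that of Kif1b at chr4:149307684-149307983 on the minus strand and that of Dynlrb2 at chr8:116504765-116505064 on the plus strand.
Kif5c: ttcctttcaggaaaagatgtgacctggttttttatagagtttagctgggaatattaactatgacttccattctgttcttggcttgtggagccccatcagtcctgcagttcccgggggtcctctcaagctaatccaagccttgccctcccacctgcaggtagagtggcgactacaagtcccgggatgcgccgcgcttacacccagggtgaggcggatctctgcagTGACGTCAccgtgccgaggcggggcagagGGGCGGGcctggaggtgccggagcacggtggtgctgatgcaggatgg
Kif1b: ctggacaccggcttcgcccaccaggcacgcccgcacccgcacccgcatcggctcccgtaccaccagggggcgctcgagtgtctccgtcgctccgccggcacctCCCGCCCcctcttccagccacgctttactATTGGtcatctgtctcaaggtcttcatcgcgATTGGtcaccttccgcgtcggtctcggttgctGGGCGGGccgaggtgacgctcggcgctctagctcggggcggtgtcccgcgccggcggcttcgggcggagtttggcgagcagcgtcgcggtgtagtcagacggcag
Dynlrb2: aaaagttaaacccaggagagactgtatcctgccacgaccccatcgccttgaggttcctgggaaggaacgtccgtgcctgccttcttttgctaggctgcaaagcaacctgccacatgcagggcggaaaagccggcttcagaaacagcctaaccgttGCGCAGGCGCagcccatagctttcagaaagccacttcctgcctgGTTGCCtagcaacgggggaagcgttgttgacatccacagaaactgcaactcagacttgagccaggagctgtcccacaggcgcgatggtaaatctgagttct
Of the 64 members, 47 matched the promoter table. The cAMP response element was found in 5 of them, against 1.79% of all 32851 promoters, the GC box in 24 against 25.6%, the CCAAT letters in 22 against 37.4%, the X-box half-site in 15 against 12.5% and the NRF1 motif in 7 against 4.6%. A member was counted if any promoter listed under its symbol held the motif. The percentages are over single promoters, so the measures are unlike where a symbol has several promoters. These matches are a description of the sequence and not evidence of binding.

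The levels, per kilobase of the longest transcript, were led by a few genes. In the ONH at 30 days the light chain gene Dynlrb1 (239 ± 44.2 CPM per kb, SD, n = 7) was followed by Kif5a (185 ± 49.3), the kinesin light chain gene Klc1 (147 ± 23.9) and Kif5b (140 ± 29.5), and the last 2 differed by less than their spread. In the ONP at 30 days the order was Dynlrb1 (147 ± 13.7), Klc1 (115 ± 21.5) and the dynactin gene Dctn2 (102 ± 8.91), while Kif5b reached 65.1 ± 3.38. At the other end, Kif14 and Kif28 did not pass the filter on low counts in any comparison. Kif28 was at 0 in all ONH libraries and Kif14 in all ONP libraries at 7 days.

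The first comparison asked how the motor genes changed between 7 and 30 days in the ONP. Of 61 members tested, 19 passed the threshold (adjusted p-value under 0.05, edgeR quasi-likelihood test), 15 lower and 4 higher at 30 days. Among all 15491 genes tested, 17% passed, 9.21% lower and 7.82% higher. The median log2FC of the members was -0.17, against -0.01 for all genes. Scaling by library size alone gave 12 lower and 9 higher, against 18.7% of all genes, and moved the median of all genes to 0.11. The 2 groups did not overlap for 18 members, 14 lower and 4 higher, against 12.1% of all genes.

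The kinesin-1 heavy chains, the motor subunits of conventional kinesin, were all lower at 30 days. Kif5a, the form best known from neurons, was at 1108, 959, 1171 and 705 CPM in the ONP at 7 days and at 168 to 336 CPM (median 194) at 30 days. Every library at 30 days lay below every library at 7 days. This is a log2FC of -2.15 (SE 0.20, adjusted p-value 0.00026). Kif5b, the ubiquitous form, fell by 0.64 on the log2 scale (SE 0.09, adjusted p-value 0.0016), from 598 ± 82 CPM (SD, n = 4) to 393 ± 20.4 CPM (n = 7). Kif5c had a log2FC of -0.79 (SE 0.14, adjusted p-value 0.0034), from 43.7 ± 10 to 25.9 ± 2.28 CPM. Of their light chains, which bind cargo, Klc1 was lower (log2FC -0.70, adjusted p-value 0.0059) and Klc3 higher (1.05, adjusted p-value 0.021), the latter at only 1.53 to 6.24 CPM in the ONP.

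**Figure D1:**
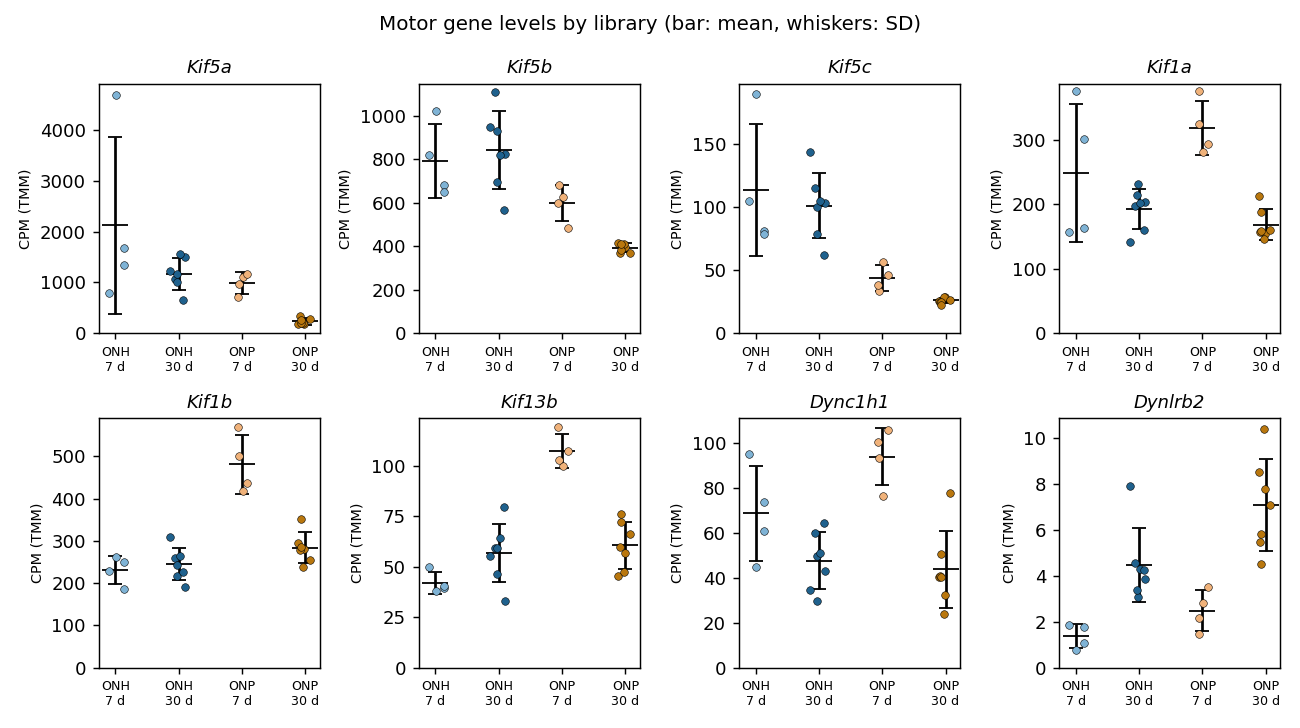
Levels in CPM (y axis, from 0) of 8 motor genes in each library, by region and day (x axis). Points are libraries, the bar is the mean and the whiskers are the SD. Kif5a, Kif5b and Kif5c are lowest in the ONP at 30 days, and Kif1b and Kif13b are highest in the ONP at 7 days.

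Kinesin-3 motors carry cargo such as synaptic vesicle precursors and mitochondria. Of the 6 tested in the ONP, 4 were lower at 30 days. Kif1a was at 281, 325, 293 and 375 CPM at 7 days and at 146 to 213 CPM (median 158) at 30 days (log2FC -0.96, SE 0.12, adjusted p-value 0.00063). Kif1b was at 417, 501, 437 and 571 CPM at 7 days and at 237 to 352 CPM (median 282) at 30 days (log2FC -0.79, SE 0.11, adjusted p-value 0.0014). The groups did not overlap for either gene. Kif13b, a motor of membrane cargo, was at 99.9, 103, 107 and 119 CPM at 7 days and at 45.5 to 75.9 CPM (median 60) at 30 days (log2FC -0.86, SE 0.14, adjusted p-value 0.0021). Kif16b, an endosome motor, had a log2FC of -0.48 (adjusted p-value 0.025), and this call was lost in 7 of 21 alternatives. Outside this family, Kif21a (kinesin-4, log2FC -1.19), Kif3c (a kinesin-2 subunit, -0.67) and Kif26a (-1.18, at 0.789 to 4.51 CPM) were lower, and the call for Kif26a was lost in 16 of 21 alternatives.

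Dynein and dynactin showed both directions. The dynein heavy chain Dync1h1, which holds the motor domain, fell by 1.14 on the log2 scale (SE 0.24, adjusted p-value 0.0086), from 94.1 ± 12.8 to 43.8 ± 17.1 CPM, and its groups overlapped through 1 library at 30 days (77.7 CPM). The light intermediate chain Dync1li1 (log2FC -0.50) and the intermediate chain Dync1i2 (-0.35) were also lower. Dctn1, the largest dynactin subunit, had a log2FC of -0.65 (adjusted p-value 0.0047), while Dctn6, a small subunit of the pointed end, had a log2FC of 0.39 (adjusted p-value 0.012). All 9 dynein light chains had a log2FC above 0, where the median of all genes was -0.01, and 2 of them passed the threshold. They include the near-identical Dynlt1a, Dynlt1b, Dynlt1c and Dynlt1f, so the 9 are not separate observations. Dynlrb2 was at 2.81, 2.17, 3.52 and 1.46 CPM at 7 days and at 4.51 to 10.4 CPM (median 7.06) at 30 days (log2FC 1.47, SE 0.30, adjusted p-value 0.008). Dynlt1f had a log2FC of 0.47, and as its reads may be shared with the near-identical genes Dynlt1a, Dynlt1b and Dynlt1c its value is uncertain.

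**Figure D2:**
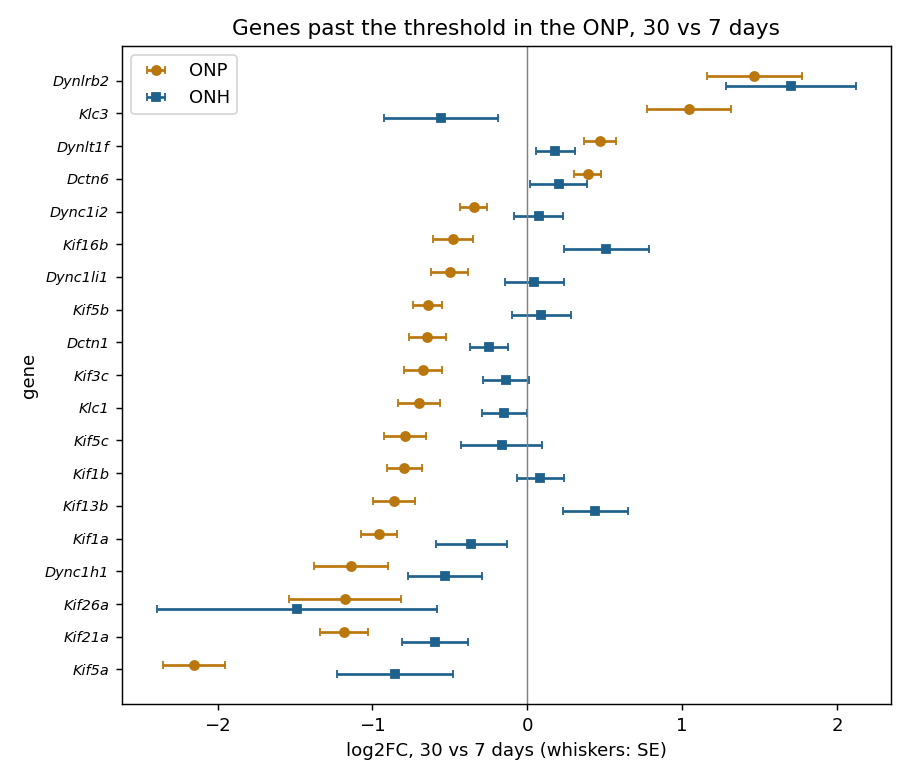
log2FC at 30 vs 7 days (x axis, whiskers are SE) of the 19 members past the threshold in the ONP (y axis, genes), in the ONP (circles) and ONH (squares). In the ONP 15 genes lie below 0 and 4 above.

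Several core members missed the threshold in the ONP. Kif3a, a partner of Kif3c in kinesin-2, was at 78.5 ± 10.4 CPM (SD, n = 4) at 7 days and 66.2 ± 2.71 CPM (n = 7) at 30 days (log2FC -0.28, adjusted p-value 0.051). Kif1c, a further kinesin-3 gene, was at 8.28 ± 2.34 and 13 ± 1.89 CPM (log2FC 0.61, adjusted p-value 0.052). Dync1li2, the more abundant light intermediate chain, was at 281 ± 19.5 and 236 ± 29.1 CPM (log2FC -0.29, adjusted p-value 0.067). Dctn2, Dctn3, Dctn4 and Dctn5 had log2FC between -0.22 and 0.12. Some paralogs were scarce in every library: the light chain gene Klc2 ranged from 0.263 to 4.23 CPM and the intermediate chain gene Dync1i1 from 0.263 to 8.54 CPM. In the ONP comparison the filter left out Kif14, Kif28 and Kifc5b. In the ONH comparison over days it also left out Kif15 and Kif26b, and between the regions it left out 6 members on each day, always with Kif14, Kif15, Kif28 and Kifc5b among them. Kifc5b and Kifc1 are near-identical copies whose reads may be shared.

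The direction in the ONP moved with transcript length. Across the 61 members the Spearman correlation of log2FC with the length of the longest transcript was -0.52, and across 15478 genes it was -0.25. Genes share libraries and are not independent replicates, and the part of length in the result was tested only as an offset for length and GC content. With this offset 21 members passed, 17 lower and 4 higher, against 16.3% of all genes, and Dctn6 was lost (log2FC 0.08, adjusted p-value 0.52). Kif5a, Kif1a, Kif1b and Kif13b passed under all 21 alternatives.

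**Figure D3:**
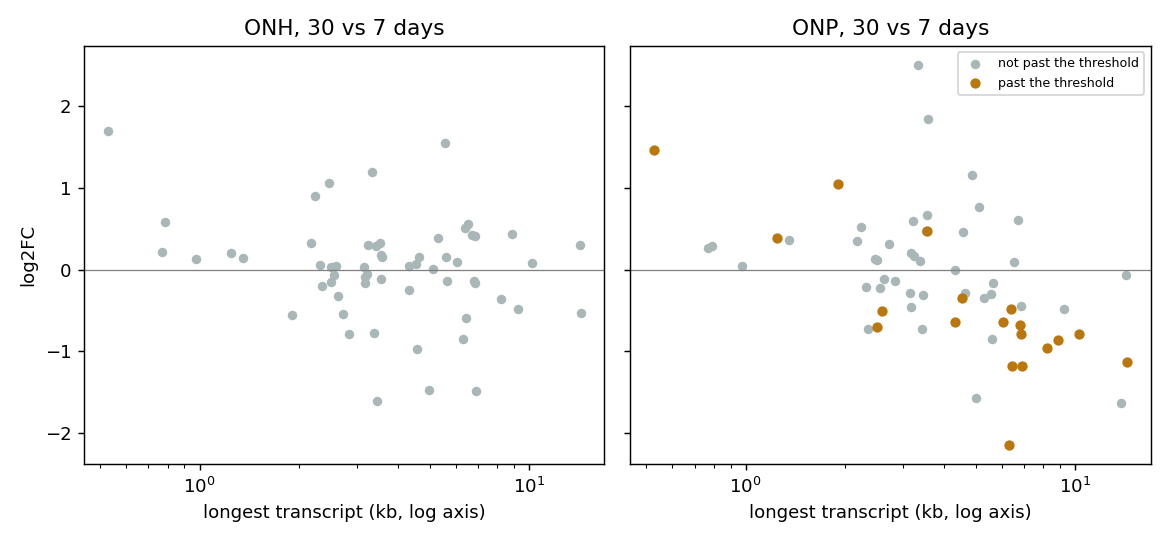
log2FC at 30 vs 7 days (y axis) against the length of the longest transcript in kilobases (x axis, log scale) in the ONH (left) and ONP (right), with each point a member and those past the threshold in the darker colour. In the ONP the longer transcripts lie lower, with a Spearman correlation of -0.52, and in the ONH the correlation is -0.14.

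Markers of other cells fell in the same comparison. In the ONP, 7 of 8 oligodendrocyte markers (median log2FC of the list -0.85) and 4 of 7 endothelial and mural markers were lower at 30 days. Of the 10 neuron and axon markers tested, 3 were lower and 1 was higher. Of 6 ciliated cell markers tested, 3 were higher. None of the 8 microglia markers passed the threshold, but their summed level was uneven: 1631 to 2751 CPM at 7 days, and at 30 days 299 to 433 CPM in libraries 1, 2, 3 and 6, 1231 CPM in library 4, 3766 CPM in library 5 and 4636 CPM in library 7. Without libraries 5 and 7, a choice made after seeing the data, 23 members passed, 8 higher and 15 lower at 30 days, against 24.3% of all genes tested, and 17 of the 19 reported members were among them. The part of the other markers in the result was not tested.

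Other genes of the transport machinery are read against the 9.21% of all genes that were lower and the 7.82% that were higher. Of 19 kinesin partners and cargo adaptors, 5 were lower in the ONP at 30 days and none was higher, among them Mapk8ip3 (log2FC -0.67) and Map7 (-1.02). Of 23 microtubule-associated proteins, 7 were lower, among them Map1a (-1.33) and Clasp2 (-0.82), and 1, Stmn3 (0.54), was higher. None of 13 tubulins passed in either direction. Of 26 genes of intraflagellar transport and dynein-2 partners, 2 were higher, Ift27 (0.71) and Wdr34 (0.61). Of 16 dynein regulators and activating adaptors, 2 were lower, Ccdc88a (-0.71) and Hook3 (-0.89), and 1, Bicdl1 (0.58), was higher. Of 6 other dynactin subunits, 1 was lower, Actr1a (-0.32). Of 12 axonemal dyneins, 2 were higher, Dnal4 (0.53) and Dnali1 (1.52).

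The second comparison asked the same of the ONH. No member of the 59 tested passed the adjusted threshold with edgeR, nor did any of the 15668 genes (0%). At an unadjusted p under 0.05, 10 members (16.9%) passed, 5 higher and 5 lower, against 13.9% of all genes. DESeq2 called 4 members, against 2.57% of all genes, and limma-voom called 0, against 0% of all genes. The smallest adjusted p-value was 0.18, for Dynlrb2, which was at 0.764, 1.76, 1.86 and 1.09 CPM at 7 days and at 3.06 to 7.92 CPM (median 4.25) at 30 days (log2FC 1.70, SE 0.42). Its groups did not overlap, as for 2 members in all, both higher, and for 2.25% of all genes. Kif5a had a log2FC of -0.85 (SE 0.37, adjusted p-value 0.34), which was -0.11 without library 1 of the 7 day group.

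The difference between the regions in this change was tested directly. Of 62 members, 2 passed, against 0.543% of 16748 genes. Kif13b had a difference, ONP minus ONH, of -1.30 (SE 0.26, adjusted p-value 0.025), from a log2FC of -0.86 in ONP and 0.44 in ONH libraries. In the ONH it was at 37.8, 39.7, 50.1 and 40.3 CPM at 7 days and at 33 to 79.6 CPM (median 59.4) at 30 days. Kif1b had a difference of -0.88 (SE 0.19, adjusted p-value 0.039), with a log2FC of -0.79 for the ONP and 0.09 for the ONH. Its call was lost in 20 of 33 alternatives and that of Kif13b in 4. Leaving out ONP library 1, 2 or 6 of the 7 day group left no member past the threshold. For Kif5a the difference was -1.30 (SE 0.46, adjusted p-value 0.22) and for Kif5b -0.73 (SE 0.22, adjusted p-value 0.13), so a difference between regions was not shown for either.

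The third comparison set the ONH against the ONP at 30 days. Here 24 of 58 members passed (41.4%), 16 higher and 8 lower in the ONH, and this share was near the 41.8% of all genes (21.8% higher, 20% lower). The kinesin-1 heavy chains had the smallest p-values. Kif5a was at 649 to 1560 CPM (median 1159) in the ONH and at 168 to 336 CPM in the ONP (log2FC 2.40, SE 0.20, adjusted p-value 4.9e-07). Kif5c was at 62.1 to 144 CPM (median 104) in the ONH and at 22.3 to 28.8 CPM (median 25.5) in the ONP (log2FC 2.00, SE 0.15, adjusted p-value 1.7e-07). Kif5b had a log2FC of 1.14 (SE 0.12, adjusted p-value 5.3e-06). The groups did not overlap for any of these genes. Of the 9 dynein light chains 5 were higher in the ONH, led by Dynlrb1 (log2FC 0.74, adjusted p-value 0.00012), which was 0.10 (adjusted p-value 0.33) with offsets for length and GC content. The call for Dynll1 was lost in 11 of 26 alternatives. Dynlt1c and Dynlt1f, also among the 5, may share reads and are not separate observations.

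Lower in the ONH at 30 days were Kif1bp (log2FC -1.03, SE 0.13), the kinesin-9 genes Kif6 (-1.41) and Kif9 (-1.75), both known from motile cilia, Kif3c (-0.46), Dctn4 (-0.55), Kifc3 (-0.52), Kif26a (-1.33) and Kifc2 (-0.64). The call for Kifc2 was lost in 13 of 26 alternatives and that for Kif26a in 3 of 25. Kif26a was scarce in the ONH at 30 days, at 0.1 to 0.905 CPM. Kif9 was at 0.99 to 3.68 CPM in the ONH and at 4.36 to 14 CPM in the ONP. Other cells' markers differed between the regions on that day. All 8 photoreceptor markers and all 6 pigment cell markers were higher in the ONH, and 6 of 8 oligodendrocyte markers were lower. Without library 4 of the ONH, the richest in photoreceptor markers (2566 CPM), 24 members passed, the same 24 genes, against 39.2% of all genes. This choice was made after seeing the data. The other ONH libraries still held 157 to 510 CPM of these markers, against 28.9 to 77.4 CPM in the ONP, so this run did not remove that difference.

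At 7 days 12 of 58 members passed (20.7%, against 13.2% of all genes), 3 higher and 9 lower in the ONH, against 6.34% and 6.81% of all genes. With scaling by library size alone there were 4 higher and 5 lower, against 15.1% of all genes. Kif13b (log2FC -1.32, SE 0.16, adjusted p-value 0.00069) and Kif1b (-1.03, SE 0.17, adjusted p-value 0.0028) led the lower genes, and at 30 days their log2FC was -0.05 and -0.17. Klc3 was higher in the ONH, at 8.19, 4.99, 11.6 and 10.3 CPM against 2.14, 1.73, 2.73 and 1.53 CPM (log2FC 2.13, adjusted p-value 0.0071). Leaving out any ONP library of the 7 day group brought the count from 12 to 7. Oligodendrocyte markers were lower in the ONH for 8 of 8 genes, and their part in the result was not tested. Passing on both days, in the same direction, were Kif5c, Dynlt1f, Kif1bp, Kif3c and Dctn4. At 7 days the call for Dctn4 was lost in 10 of 18 alternatives and that for Kif1bp in 6.

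**Figure D4:**
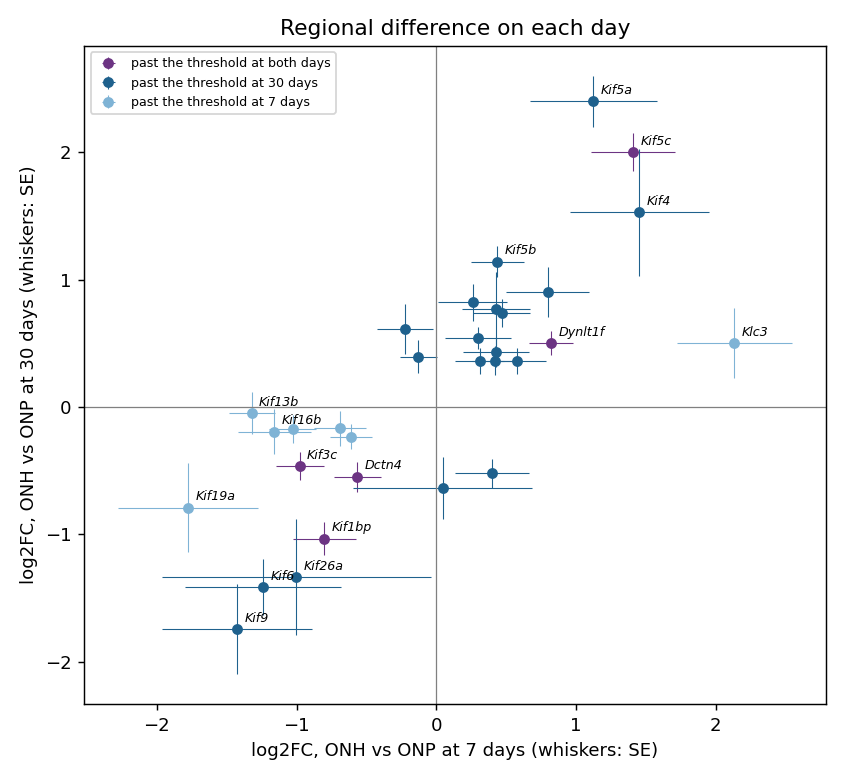
log2FC of the ONH vs the ONP at 7 days (x axis) and at 30 days (y axis), with SE as whiskers, for the members past the threshold on either day (colour gives the day). Kif5c lies high on both axes, Kif5a lies high at 30 days, and Kif13b lies at -1.32 at 7 days and near 0 at 30 days.

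Paralogs were then compared within a library, which removes the scaling between libraries. Of 32 tests on 8 ratios (exact two-sided permutation test, Benjamini-Hochberg adjusted over the 32), 4 passed. The log2 ratio of Kif5a to Kif5b counts in the ONP was 0.71 ± 0.45 (SD, n = 4) at 7 days and -0.83 ± 0.43 (n = 7) at 30 days (exact p = 0.0061, the smallest this design allows, adjusted p = 0.048). At 30 days this ratio was 0.45 in the ONH, 1.28 above the ONP (exact permutation p = 0.00058, the smallest this design allows, adjusted p = 0.0093). Kif5c to Kif5b was also higher in the ONH at 30 days, by 0.85 (exact permutation p = 0.00058, adjusted p = 0.0093). Kif3c to Kif3a was lower in the ONH at 30 days, by -0.39 (exact permutation p = 0.0041, adjusted p = 0.044). Among kinesin-1 heavy chain counts per base, Kif5a made up 59.3 ± 6.99% (SD, n = 4) in the ONP at 7 days, 34 ± 6.75% (n = 7) in the ONP at 30 days and 54.1 ± 5.94% (n = 7) in the ONH at 30 days.

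**Figure D5:**
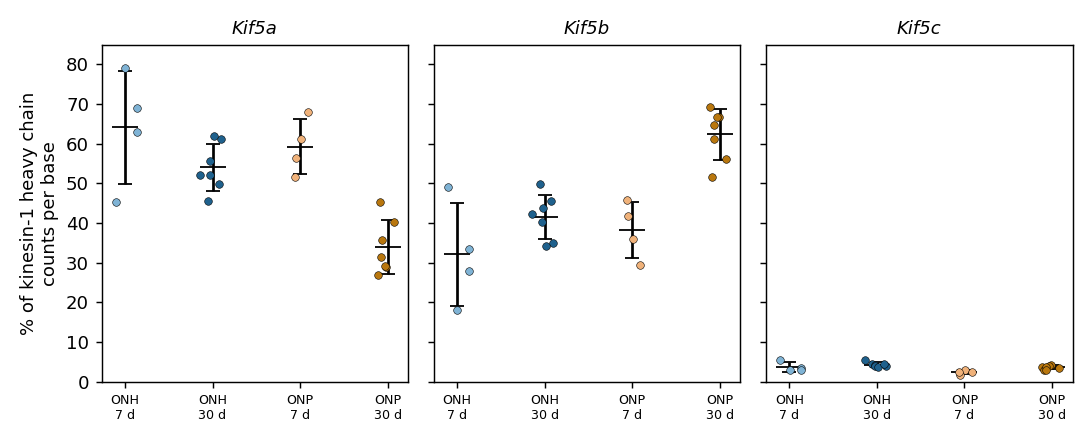
Share of kinesin-1 heavy chain counts per base of transcript (y axis, percent) taken by Kif5a, Kif5b and Kif5c in each library, by region and day (x axis), with the mean and SD. In the ONP at 30 days Kif5b holds 62.4% on average and Kif5a 34%, and in the other 3 groups the mean share of Kif5a is above that of Kif5b.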

How the data were processed

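The authors aligned reads with STAR 2.6.1d (mm10), used Salmon 0.14.2 with Ensembl 94 for quantification, and deposited expected counts of each gene, rounded and not normalized. A table of transformed values made with DESeq2 was also deposited and was not used here. Columns were assigned to libraries by title at 30 days and only to region and day at 7 days, where the column numbers differ from the replicate numbers in the labels. Genes were filtered with filterByExpr, scaled by TMM and tested with the quasi-likelihood test of edgeR 4.0.16 in R 4.3.3 (all genes, Benjamini-Hochberg adjustment, adjusted p under 0.05), each comparison on its own groups and the difference in change over all 4 groups. Ratios used a pseudocount of 0.5 counts and exact permutation tests in scipy 1.17.1. Lengths came from GENCODE M21, promoters from RefSeq. Scripts were tested on simulated data. Alternatives were DESeq2 1.42.0, limma-voom (limma 3.58.1), other scalings and filters, offsets for length and GC content, a single fit, a replicate block and each library left out.

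Each mouse gave tissue of both regions, but no source used here ties the replicate numbers to the mice. Nothing in the sources used here names a batch. Total counts were 16292489 to 33307092 per library, and the limit of 3 counts covers counting error only, since PCR copies are not independent molecules.

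The named genes were drawn from 29 core transport motors and from members left out by the filter. In each comparison they were also drawn from the members past the threshold (the 15 with the smallest p where more passed). The 3 largest and 3 smallest log2FC among those whose groups do not overlap were a further source. Not every gene of these sources is named, and an unnamed member may have passed. A few others are named for their family. The members, lists and rules were chosen with earlier results of these data known. Left out were comparisons with 0 days.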

Additional observations from a re-analysis of the deposited data

Results flagged for a closer look

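For 2 genes the change from 7 to 30 days differed between the regions by an interaction test (edgeR, adjusted p under 0.05). The log2FC in the ONP minus that in the ONH was -1.30 for Kif13b and -0.88 for Kif1b. The call for Kif1b was lost in 20 of 33 alternatives and that for Kif13b in 4.

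A single library stood far from the rest of its group in 15 of 164 combinations of a named gene and a group, where chance gives about 1 in 20. At 30 days in the ONH these were Dctn3 (149 CPM in library 6, others 92.8 to 114), Dynlrb2 (7.92 in library 6, others 3.06 to 4.56), Kif1c (31.4 in library 6, others 10.9 to 19.3), Dynlt1c (29.8 in library 1, others 18.5 to 22.5), Kif16b (24.2 in library 2, others 10 to 15.7), Klc2 (4.23 in library 2, others 0.263 to 1.68) and Klc3 (12 in library 4, others 3.35 to 6.45). In the ONP at 30 days it was Kif21a (59.5 in library 5, others 31.7 to 41.9). At 7 days in the ONH these were Dync1i2 (65.1 in library 1, others 46.5 to 48.7) and Kif3b (34.3 in library 1, others 21 to 22.1). At 7 days in the ONP these were Dctn3 (92.1 in library 1, others 80.2 to 81.6), Kif16b (27.9 in library 1, others 21.5 to 22.5), Kif21b (22.1 in library 1, others 13.3 to 14.6), Dctn4 (108 in library 6, others 96.2 to 97.8) and Dynlrb1 (113 in library 2, others 84.6 to 86.9).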

How the results depend on the processing

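Members past the threshold in the ONP at 30 vs 7 days numbered 13 to 27 over the alternatives (19 as reported). The 13 came from a single fit of all 4 groups (7.1% of all genes passed) and the 27 from DESeq2 (19.5%). With each library left out there were 16 to 22. For the ONH vs the ONP at 30 days there were 21 (no filter, 22.1% of all genes) to 27 (limma-voom, 43.8%), with 24 as reported, and 21 to 26 with each library left out. In the ONH at 30 vs 7 days, DESeq2 gave 4 (2 higher, 2 lower), against 2.57% of all genes. A single fit of all 4 groups gave 4 (3 higher, 1 lower), against 1.74% of all genes, and leaving out libraries gave 0 to 1. At 7 days a single fit gave 20 members between the regions (12 as reported), against 22.6% of all genes, and leaving out libraries gave 7 to 12. For the difference in change, DESeq2 gave 5 members, against 2.28% of all genes. The limma-voom fit, RLE, library size only, no filter, and length and GC offsets gave 1 each (2 as reported), against 0.17% to 0.764%. Leaving out libraries gave 0 to 3. The paralog ratios gave 4 with pseudocounts of 1 and 2, and 2 to 4 with each library left out, where fewer samples raise the smallest possible p. With offsets for length and GC content 2 values at 30 days, ONH vs ONP, reversed: Dctn3 to -0.15 and Dctn6 to -0.00405. The cause of these changes was not otherwise tested. Of 57 gene results past the threshold, 33 lost no call in their own direction under the alternatives run for them. Dctn3 at 30 days is counted among these 33, although with the offsets it reversed and missed the threshold (edgeR adjusted p-value 0.12). Replicate numbers at 30 days are shared by ONH and ONP libraries, and no source used here says that they mark the same mice. As a hint from the data, deviations of same-numbered libraries correlated with r of 0.0747 to 0.495, 2 of 7 pairs were under 0.1, and 3 of 7 correlated best with their own number. With the replicate block in edgeR, 24 members passed between the regions at 30 days, the same 24 genes, against 44.4% of all genes. For the difference in change, a limma-voom fit with a correlation within the 30 day numbers gave 2, against 0.961% of all genes. As this fit differs from the reported fit in more than the pairing, it does not isolate the block. With the 30 day ratios between regions tested as pairs (exact two-sided sign flips, added after seeing the data), 0 of the 32 tests passed in place of 4. The smallest p that 7 pairs allow is 0.0156, which Kif5a to Kif5b, Kif5c to Kif5b and Kif3c to Kif3a each reached with 7 of 7 pairs in one direction (adjusted p = 0.125), so this count says nothing on their stability. The test of Kif5a to Kif5b across days in the ONP was itself unchanged and lost its call through the adjustment over the 32. A block at 7 days was not run, since the columns do not carry the numbers of the labels.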
